A study of Mus musculus with 96 samples.

Results

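MicroRNA hairpins of the striatum were compared between wild-type mice of 10 and of 6 months of age. All wild-type libraries were taken, 32 of the 96 libraries in all, with 16 at each age, and no measured value entered their choice. The mice were C57BL/6 by their labels, had no engineered *Htt* allele, and were wild-type siblings from the Q20 or the Q50 line, housed with wild-type and heterozygous mice of that line. Each of these litter lines gave 4 females and 4 males per age. Every library came from 1 mouse, so different mice were measured at the ages. The mice were controls of a series on the CAG repeat of *Htt*, the gene expanded in Huntington's disease, and the comparison asks which hairpins differ with age where no expanded repeat is present.

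MicroRNAs are short RNAs cut from hairpin precursors by the enzymes Drosha and Dicer. Loaded into Argonaute proteins, they pair with messenger RNAs through a short seed near their start and lower the stability or translation of those messages. The striatum is the part of the basal ganglia made up mainly of medium spiny neurons, with glia and vessel cells among them, and many microRNAs are enriched in particular cell types. The hairpins are known here by miRBase identifier alone, so no microRNA name, sequence or role is given for them, and markers of striatal or other cell types were not checked. In whole tissue a lower level may come from fewer cells of a type or from less RNA per cell, which cannot be told apart.

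Total counts were higher at 10 months, with 7083687 ± 1820000 per library (SD, n = 16, range 4118213 to 11060553) against 5877371 ± 789799 at 6 months (n = 16, range 4910258 to 7219838). The difference of 1206316 counts passed a two-sided permutation test (p = 0.0166, 100000 resamples). Libraries at 6 months had a median TMM factor, the multiplier that corrects a library total for its composition, of 0.952, and those at 10 months 1.04. On the first principal component, which held 23.3% of the variance of log2 abundance, libraries lay between -1.64 and 14.4 at 6 months and between -3.89 and -1.47 at 10 months. Male replicate 4 of the Q20 line and male replicate 3 of the Q50 line, both of 6 months, stood apart with a connectivity Z, a measure of how alike a library is to the others of its age, of -5.87 and -8.78. Each library description carries an L number whose meaning is not stated and that was spread unequally over the ages. At 6 months there were 1, 3, 10 and 2 libraries of L3, L4, L5 and L6, and at 10 months 5, 7, 4 and 0. The leading numbers of the descriptions did not overlap between the ages either, so age cannot be told apart from whatever goes with that numbering.

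Abundance of 165 of 440 hairpins tested was associated with age, 37.5% of those tested, at an adjusted p below 0.05 in the quasi-likelihood test of edgeR with litter line and sex in the model. Of these, 75 were higher at 10 months (17.0%) and 90 were lower (20.5%). Most differences were small. The median size among the 165 was 0.38 on the log2 scale, with 120 below 0.5, and 7 exceeded 1, of which 6 were higher and 1 was lower at 10 months. Over all 440 hairpins the median log2 change was -0.03. The split between directions depended on how libraries were scaled. With total counts as the only scaling, 110 hairpins were called higher and 54 lower, so that 67.1% of calls were higher against 45.5% with TMM. Without both libraries of low connectivity 91 were called higher and 69 lower. All 165 hairpins kept their direction in each of these fits, which reuse the libraries of the calls. The smallest change called was 0.11 in size, and total counts as the scaling moved the median of all hairpins by 0.09. Kept direction was thus largely set in advance and is no independent check.

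**Figure D1:**
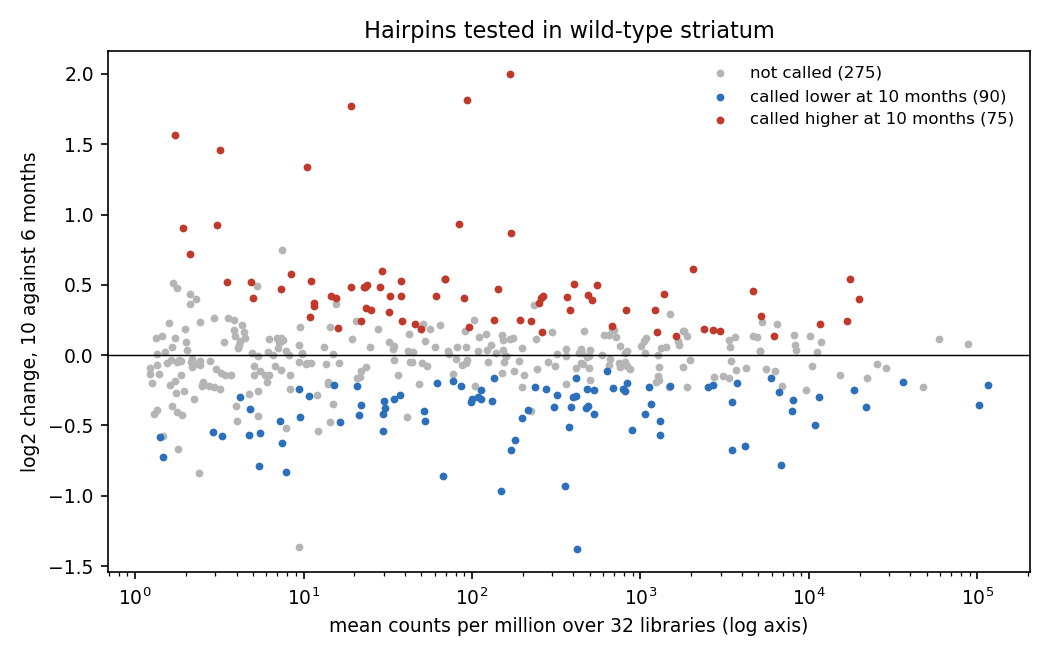
Log2 change from 6 to 10 months (vertical axis) against mean CPM (counts scaled to a common library size) over the 32 wild-type libraries (log axis), 1 point per hairpin tested, coloured by call. Calls in both directions, 75 higher and 90 lower, lie along the whole range of abundance, and most changes are below 0.5 on the log2 scale.

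Differences reached from rare to abundant hairpins. Of the 93 hairpins with a mean above 1000 CPM, the count of a hairpin scaled to a common library size, 15 were called higher and 24 lower, with a median size of 0.30 on the log2 scale. Between 100 and 1000 CPM, 18 of 112 were higher and 32 lower, with a median size of 0.34. From 10 to 100 CPM the balance was the other way, with 32 of 105 higher and 20 lower and a median size of 0.40. Under 10 CPM, 10 of 130 were higher and 14 lower. The median standard error of the log2 change was 0.15 in that lowest class and 0.08 in the highest. By hairpin length, recovered from the ratio of counts to FPKM, 60 of 150 hairpins up to 74 bases long were called, with 57 of 145 from 75 to 89 bases and 48 of 145 of 90 bases or more. Since the calls were made on these same libraries, the share of counts they took is given as a description. The 75 higher hairpins together took between 6.46% and 10.0% of the counts of a library at 6 months (median 9.13%) and between 11.6% and 12.8% at 10 months (median 12.1%). The 90 lower hairpins took a median of 40.6% at 6 months (38.9% to 50.3%) and of 36.1% at 10 months (34.5% to 38.1%). Neither set of shares overlapped between the ages.

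In each direction the 2 hairpins with the smallest adjusted p were taken among those that changed the same way in both litter lines. MI0000163 was at 281 to 382 CPM at 6 months, with a median of 329, and at 389 to 590.3 CPM at 10 months, with a median of 476. Every 10-month mouse thus lay above every 6-month mouse. Its log2 change was 0.51 ± 0.05 (SE; adjusted p 8.47e-09, edgeR). MI0004636 ran from 65.4 to 157 CPM at 6 months (median 122) and from 164 to 282 CPM at 10 months (median 209), again without overlap. The log2 change was 0.87 ± 0.10 (adjusted p 7.23e-08), a rise of 1.83-fold. The lowest 6-month value of this hairpin, 65.4 CPM, was in 1 of the libraries with low connectivity, and without both of those libraries the log2 change was 0.82.

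MI0004665 had the smallest p of all hairpins tested. It was at 445 to 930.2 CPM at 6 months, with a median of 557, and at 152 to 299 CPM at 10 months, with a median of 239. No 10-month mouse reached the lowest 6-month mouse, and the means were 607 ± 154 and 233 ± 52.9 CPM (SD, n = 16 each). The log2 change was -1.38 ± 0.12 (adjusted p 1.67e-10), a level 2.60-fold lower. MI0000170 was at 112 to 308 CPM at 6 months (median 199.8) and at 73.7 to 126 CPM at 10 months (median 98.5). Here the ages overlapped, with 11 of 16 mice of 10 months below the lowest of 6 months. Its log2 change was -0.97 ± 0.11 (adjusted p 5.08e-08). Values of MI0004665 and of MI0000170 were not whole numbers in 21 libraries each, and these were the same libraries for both hairpins. How such values arose is not stated, so the levels of both hairpins are uncertain to that extent. Whether their counts are linked was not tested, so both decreases may not be independent findings.

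**Figure D2:**
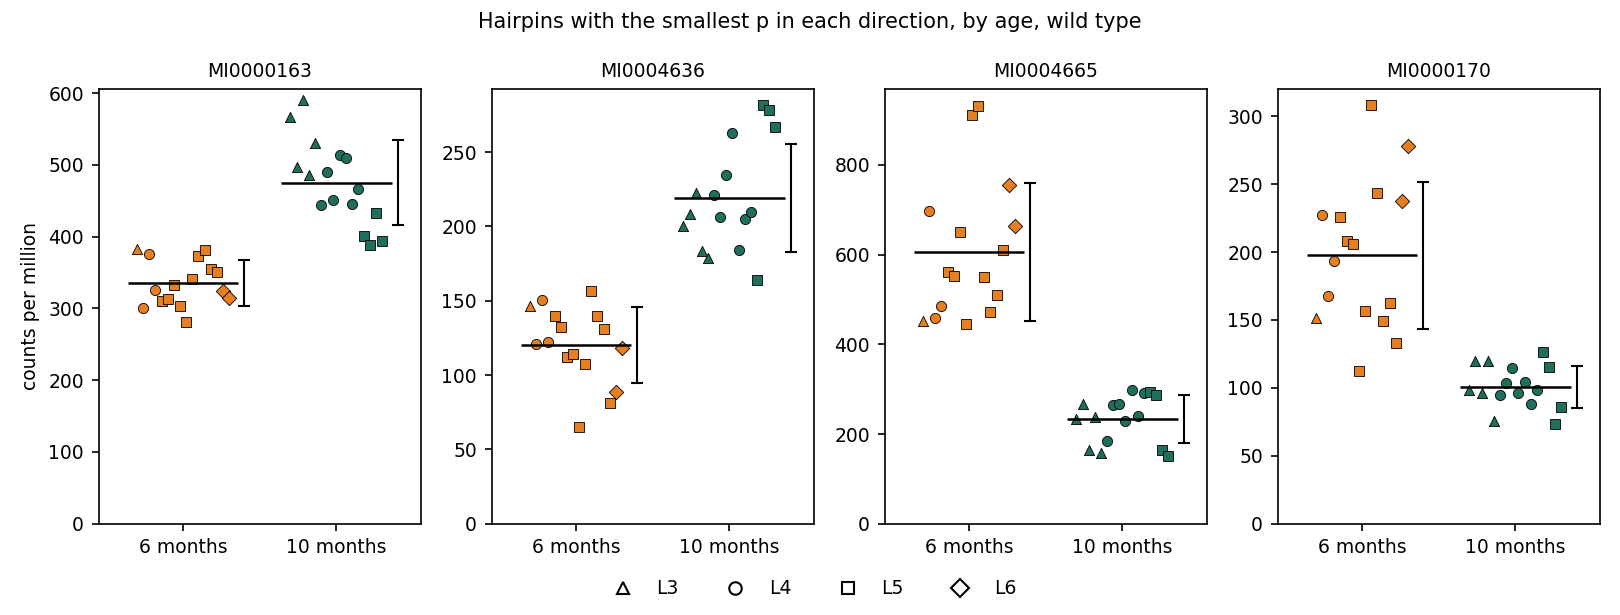
Levels in CPM of 4 hairpins in each of the 32 wild-type mice, by age, with symbols for the L number, a line at the mean and a bar of 1 SD. For MI0000163, MI0004636 and MI0004665 the ages do not overlap, and for MI0000170 11 of 16 mice of 10 months lie below every mouse of 6 months.

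Complete separation of the ages was found for 5 of 440 hairpins (1.14%), the 3 above and a further pair that was singled out after its values were seen. MI0003521 was at 6569 to 15171 CPM at 6 months (median 7534) and at 4212 to 5789.6 CPM at 10 months (median 4934). Its highest value was in male replicate 3 of the Q50 line, a library with low connectivity. The log2 change was -0.78 ± 0.10 with all libraries (adjusted p 3.18e-07) and -0.61 without both such libraries (adjusted p 8.20e-09). MI0014103 was at 3321 to 7070.3 CPM at 6 months (median 3987) and at 2255 to 3105 CPM at 10 months (median 2646). The log2 change was -0.67 ± 0.09 (adjusted p 8.43e-07) and -0.51 without these libraries. In males the log2 changes of MI0003521 and MI0014103 were -1.01 and -0.87, and in females -0.52 and -0.44. The difference between sexes did not pass its own test in edgeR (adjusted p 0.206 for each). Both libraries of low connectivity were from 6-month males, with MI0003521 at 14267 and 15171 CPM and MI0014103 at 6531 and 7070 CPM. Next came 6-month male replicate 3 of the Q20 line, at 10684 and 5117 CPM. The sexes were not compared without these libraries. Leaving out both libraries of low connectivity cannot lower the number of hairpins that separate the ages completely, and it stayed at 5.

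The largest changes, also singled out after they were seen, were rises. MI0021583 was at 32.2 to 118 CPM at 6 months (median 69.1) and at 88.7 to 580.2 CPM at 10 months (median 257), with 14 of 16 mice of 10 months above every mouse of 6 months. Its log2 change was 1.996 ± 0.25 (adjusted p 3.25e-07). MI0021587 went from 19.5 to 73.8 CPM (median 40.6) to 51.2 to 248 CPM (median 142), with 13 of 16 mice above the 6-month range and a log2 change of 1.82 ± 0.22 (adjusted p 2.31e-07). The size of both rises varied with the L number. At 10 months MI0021583 had a mean of 136.6 CPM in L4 libraries, 369 in L5 and 373 in L3, while at 6 months it had 89.9 in L4 and 60.7 in L5. The log2 change was accordingly 0.70 within L4, which was not called (adjusted p 0.222), and 2.62 within L5. MI0021587 changed by 0.79 within L4 (adjusted p 0.378) and by 2.42 within L5. Between L numbers at 10 months, L5 libraries were above L4 libraries for both hairpins. The difference was 1.44 ± 0.27 on the log2 scale for MI0021583 and 1.30 ± 0.25 for MI0021587 (adjusted p 0.0353 for each, edgeR). That comparison called 14 hairpins, and from 2 to 23 when 1 library was left out. Whether MI0021583 and MI0021587 stayed among them was not examined.

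The most abundant pair of hairpins was looked at because it carries a large share of every library. MI0000154 took 8.32% to 14.5% of the counts at 6 months (median 12.5%) and 9.07% to 12.1% at 10 months (median 11.1%). MI0000223 took 7.996% to 15.97% (median 10.4%) and 7.19% to 11.3% (median 9.20%). The ages overlapped widely for both. Relative to the other hairpins MI0000154 was lower by a log2 change of -0.21 ± 0.06 (adjusted p 0.00929) and MI0000223 by -0.36 ± 0.09 (adjusted p 0.00149). The call of MI0000154 was lost with total counts as the only scaling (-0.12, adjusted p 0.125) and both calls were lost with the L number in the model (adjusted p 0.1002 and 0.0860). Besides single libraries left out, the call was lost under 11 of 24 alternatives for MI0000154 and under 6 of 23 for MI0000223, mostly those with fewer libraries. MI0000223 had values that were not whole in 30 libraries.

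Since L numbers were unequal between the ages, the comparison was repeated within L4 and within L5 and with L number as a covariate. With the L number as a factor 91 hairpins were called, 44 higher and 47 lower, of which 88 were among the 165, and all 165 had the same direction. Within L4, with 3 libraries at 6 months and 7 at 10 months, 25 were called, and within L5, with 10 and 4 libraries, 57 were called. Of the 165 hairpins, 146 had the same direction within L4, 162 within L5 and 143 within both, although the calls rest partly on these libraries. Of the 275 hairpins that were not called, 179 had their direction over all libraries within L4, 194 within L5 and 113 within both. For 128 of the 275 the direction within L4 was that within L5. Across all 440 hairpins the changes within L4 and within L5 had a Pearson r of -0.03 and a Spearman rho of 0.28, and without the pair MI0016973 and MI0016974 described below r was 0.21 over 438 hairpins, given as descriptions because hairpins are not independent. Whether the same L number stands for the same unit at both ages is not stated, and if it does not, neither the factor nor the fits within L4 or L5 hold that unit fixed. The 75 higher hairpins had a median log2 change of 0.42 in all libraries, 0.24 within L4 and 0.45 within L5. The 90 lower hairpins had medians of -0.35, -0.16 and -0.42. Both medians were thus smaller in size within L4 than within L5. However, the 3 L4 libraries of 6 months were all from males, while L4 at 10 months held both sexes. Both libraries of low connectivity were among the 10 L5 libraries of 6 months. What either contributed to the difference between L4 and L5 was not tested. The 4 hairpins with the smallest p by direction were called within each. MI0000163 changed by 0.45 within L4 and 0.35 within L5 on the log2 scale, and MI0004636 by 0.73 and 1.16. MI0004665 changed by -1.03 and -1.51, and MI0000170 by -0.97 and -0.83. With L number as a covariate the adjusted p of these 4 was at most 4.96e-06.

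**Figure D3:**
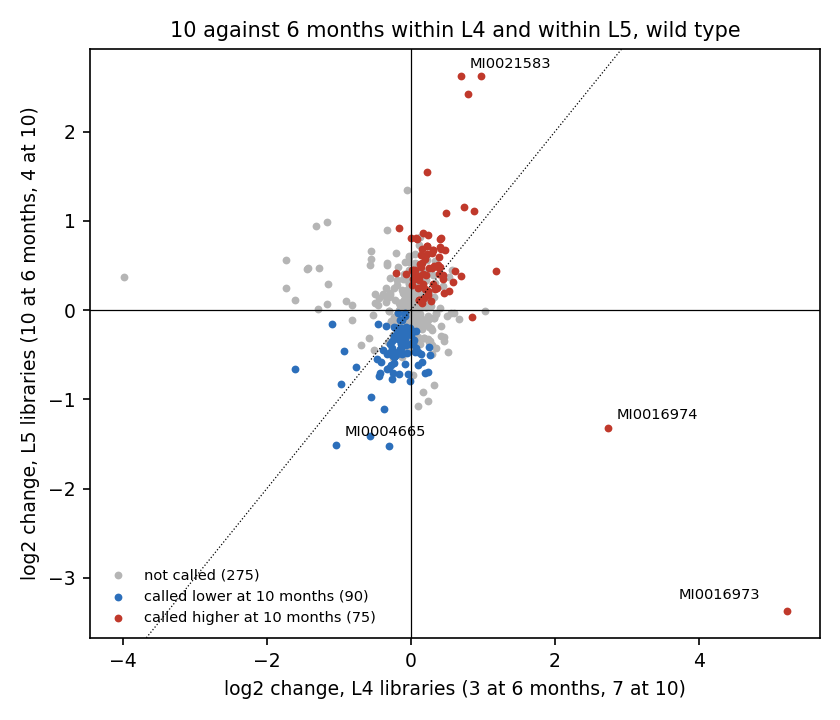
Log2 change from 6 to 10 months within L5 libraries (vertical axis) against that within L4 libraries (horizontal axis), 1 point per hairpin tested, coloured by the call over all 32 libraries, with a dotted line of equal change. MI0016973 and MI0016974 lie far out in the lower right, at 5.22 and 2.75 within L4 but -3.37 and -1.32 within L5. Of the 165 called hairpins 143 have their direction in both, as calls made partly on these libraries. Of the 275 not called 113 do. Over all 440 points Pearson r is -0.03 and Spearman rho is 0.28.

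MI0016973 and MI0016974, singled out after their values were seen, were called higher at 10 months over all libraries, with log2 changes of 1.77 ± 0.55 (adjusted p 0.0117) and 1.34 ± 0.31 (adjusted p 0.00118). Their levels did not follow age alone. At 6 months MI0016973 was at 8.58 to 17.4 CPM in the 10 L5 libraries, and at 0.423 to 1.95 CPM in the 3 L4 libraries, 2.44 in the L3 library and 0.300 to 0.306 in the L6 libraries. At 10 months the order was reversed, with 37.2 to 49.97 CPM in the 7 L4 libraries, 26.9 to 32.5 in the 5 L3 libraries and 0.598 to 1.75 in the 4 L5 libraries. Libraries of the same age but different L number did not overlap for this hairpin. MI0016974 was split in the same way between L5 and L4, at 4.70 to 10.3 CPM in L5 and 2.40 to 4.38 CPM in L4 at 6 months, and at 2.22 to 3.50 CPM in L5 and 18.8 to 24.7 CPM in L4 at 10 months. Its L3 value of 3.48 CPM and its L6 values of 3.60 and 3.82 CPM at 6 months lay within the range of L4. The difference of L5 from L4 was tested within each age. For MI0016973 it was 3.76 ± 0.32 on the log2 scale at 6 months (adjusted p 1.21e-06) and -5.17 ± 0.20 at 10 months (adjusted p 4.90e-09). For MI0016974 it was 1.70 ± 0.24 (adjusted p 3.65e-04) and -2.86 ± 0.16 (adjusted p 1.17e-07). The age change of the pair was therefore 5.22 and 2.75 within L4 and -3.37 and -1.32 within L5, and neither passed the test with the L number as a factor (adjusted p 0.695 and 0.327). For MI0016973 the split between L5 and L4 was also present in libraries of other genotypes, given next together with the wild-type libraries. Over all 96 libraries, as CPM of the library total, MI0016973 was at 8.39 to 16.5 in the 27 L5 libraries of 6 months and at 0.243 to 1.82 in the 12 of 10 months, and at 0.426 to 2.32 in the 10 L4 libraries of 6 months and at 24.5 to 59.6 in the 27 of 10 months. For MI0016974 the split over all 96 libraries was complete at 10 months alone. It was then at 2.30 to 3.65 in L5 and 15.3 to 28.2 in L4. At 6 months it was at 3.31 to 10.5 in L5 and 1.56 to 5.06 in L4, which overlap. Values of the pair were not whole in 32 and 31 of the 32 wild-type libraries.

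**Figure D4:**
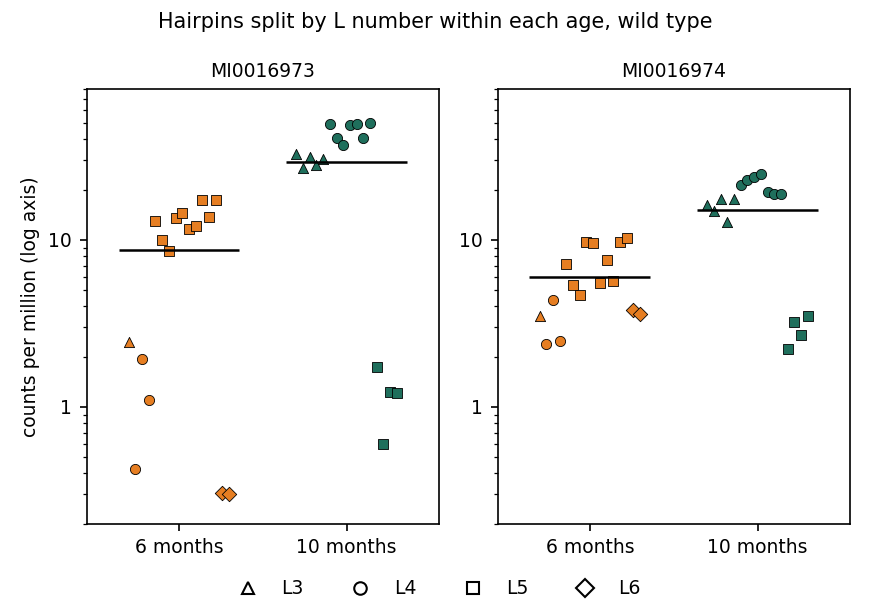
Levels in CPM (log axis) of MI0016973 and MI0016974 in each of the 32 wild-type mice by age, with symbols for the L number and a line at the mean of the age. At 6 months the 10 L5 libraries are the highest of their age, and at 10 months the 4 L5 libraries are the lowest.

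Hairpins other than this pair differed between L numbers as well. At 6 months 119 of 440 hairpins (27%) differed between L5 and L4, a number that rested on few L4 libraries. There were 3 of these, all from males, so no female entered on the L4 side. It was 14 without male replicate 1 of the Q20 line and 58 without male replicate 2 of the Q50 line, both of L4. Without an L5 library it was 74 (male replicate 4 of the Q20 line), 49 (male replicate 3 of the Q50 line) or 192 (male replicate 1 of the Q50 line). The libraries behind the values of 74 and 49 are those of low connectivity. At 10 months 14 hairpins (3.18%) differed, between 2 and 23 when any of the 11 libraries was left out. Complete separation of L4 and L5 occurred for 8 hairpins at 6 months (1.82%, 3 L4 against 10 L5 libraries). At 10 months it occurred for 23 (5.23%, 7 L4 against 4 L5 libraries). Groups this small separate by chance far more readily than 16 against 16, so these shares cannot be set against the 1.14% for age.

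Litter line and sex were examined next. Over all 440 hairpins, called or not, 339 had the same direction of age change in wild-type siblings from the Q20 line and from the Q50 line, which share no library. In the Q20 line alone 97 hairpins were called and in the Q50 line alone 58. The age change of the Q50 line minus that of the Q20 line passed the test for 0 of 444 hairpins in edgeR, with 16 at an unadjusted p below 0.05, and for 0 in DESeq2, with 21. In females alone 84 and in males alone 109 hairpins were called. The difference of the age change between males and females passed for 0 of 444 hairpins, with 69 at an unadjusted p below 0.05 and 0 calls in DESeq2 (71 unadjusted). With the L number in the model 18 were called, of which 4 had a more positive and 14 a more negative change in males.

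The same ages were compared in heterozygous Q20 knock-in mice, whose repeat is close to the usual human length and which share no library with the wild-type comparison. They had 8 libraries at each age, with 4 females and 4 males. Their L numbers were more unequal between the ages than in wild type. There were 1 L4, 6 L5 and 1 L6 library at 6 months and 1 L3, 6 L4 and 1 L5 library at 10 months. Age and L number thus went together in these mice too, and more closely. Of 430 hairpins 66 were called (15.3%), 37 higher and 29 lower at 10 months. Of the 75 hairpins called higher in wild type, 71 were higher in Q20 knock-in mice and 34 passed the test there, and 0 passed it in the other direction. Their median log2 change was 0.35 in Q20 knock-in mice. Of the 89 tested among the 90 called lower, 86 were lower and 29 passed, with a median of -0.26. The 264 tested hairpins that were not called in wild type had a median of 0.04. Of these 171 had the wild-type direction in Q20 knock-in mice, and 2 were called there in that direction. Over all 428 hairpins tested in both, 328 had the same direction. Across the 428 hairpins tested in both, the changes had a Pearson r of 0.79 and a Spearman rho of 0.71, as a description, since hairpins are not independent and both sets share the L numbers and the numbering of the ages.

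MI0004636 changed by 0.89 ± 0.11 on the log2 scale in Q20 knock-in mice (adjusted p 9.54e-05) and MI0004665 by -1.27 ± 0.16 (adjusted p 9.54e-05). MI0000170 changed by -0.86 ± 0.17 (adjusted p 0.00312). MI0000163 changed by 0.24 ± 0.12 and did not pass (adjusted p 0.194). The difference between genotypes did not pass for it either (-0.29 ± 0.11, adjusted p 0.824), and for 0 of 456 hairpins in all did the age change of Q20 knock-in mice differ from that of wild type (22 at an unadjusted p below 0.05, 0 calls in DESeq2).

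**Figure D5:**
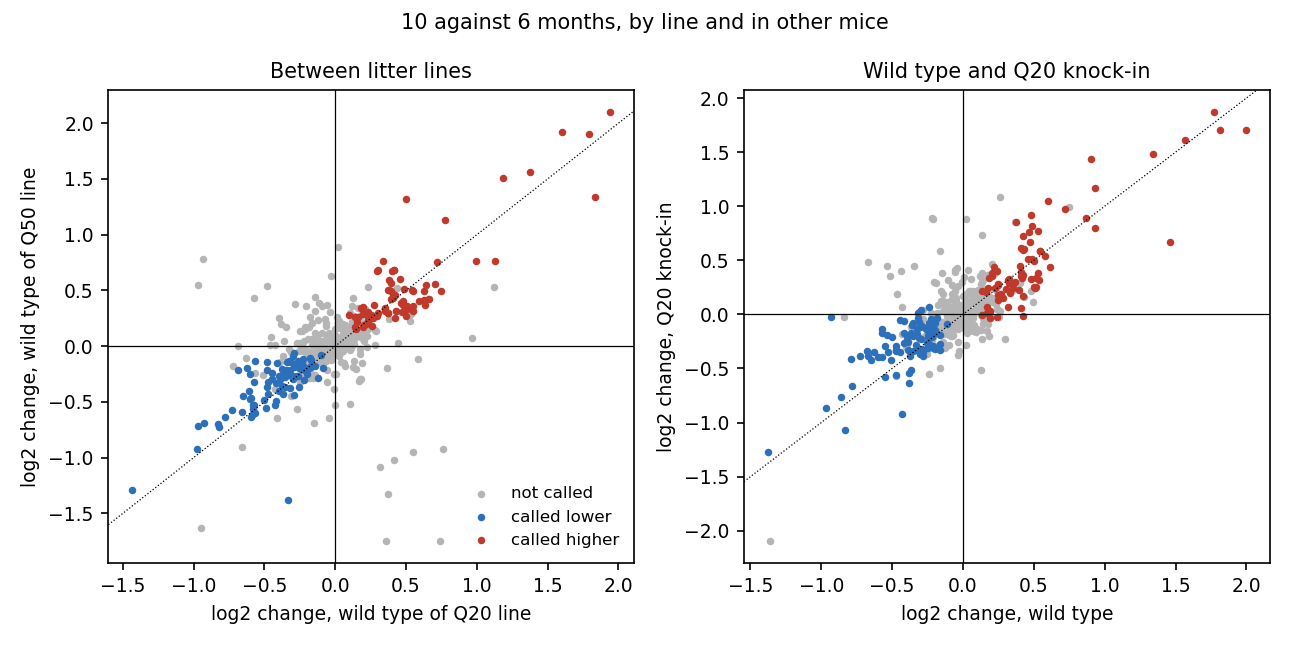
Log2 change from 6 to 10 months, 1 point per hairpin tested, coloured by the wild-type call, with a dotted line of equal change. Left, wild-type siblings of the Q50 line against those of the Q20 line, where 339 of 440 hairpins have the same direction. Right, Q20 knock-in mice against wild type, where 71 of 75 higher and 86 of 89 lower hairpins keep their direction. Over all hairpins tested in both, 328 of 428 have the same direction.

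In Q140 knock-in mice, the longest repeat of the series, the age change differed from that of wild type for 6 of 460 hairpins (1.30%), 4 with a more positive and 2 with a more negative change. The number was 11 in DESeq2 and 0 with L number as a covariate. It was 0 without female replicate 1 or without male replicate 4 of the 10-month Q140 mice, 1 without female replicate 4 or without male replicate 4 and 15 without male replicate 1 of the 6-month Q140 mice. The named hairpins were not among the 6. MI0004636 changed with age by 0.73 on the log2 scale in Q140 mice, MI0004665 by -1.45, MI0000170 by -1.10 and MI0000163 by 0.49. The L numbers of Q140 mice were unequal between the ages as well, mostly L5 and L6 at 6 months and mostly L4 at 10 months. Age and L number thus largely went together in these mice, which bears on these changes and on the 6 calls.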

How the data were processed

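Small RNA of the striatum was sequenced by the authors, 1 mouse per library, in single-end reads of 36 bases. By the authors' methods, reads were aligned to mm10 with STAR and counted with HTSeq. The submitters' processing notes name CASAVA 1.8.2. The first deposited table holds estimated counts per hairpin, of which 19.9% of the wild-type values above 0 were not whole at a tolerance of 0.001. How such values came from that counting is not stated, and all values were rounded to whole counts. The second deposited table holds FPKM values that the authors made from these counts, used for 2 alternatives and to recover hairpin lengths. P-values set differences against the spread between libraries, each of 1 mouse. Without the L number in the model, that spread also holds whatever goes with the L number, so it is not between mice alone.

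The main test was the quasi-likelihood F test in edgeR (version 4.0.16 under R 4.3.3), after TMM scaling and with robust dispersions, with litter line, sex and age in the model and Benjamini-Hochberg adjustment over all hairpins tested, called below 0.05. Of 1187 hairpins 952 had a count in a wild-type library, and filterByExpr with a minimum count of 10 kept 440, with 99.98% of the counts. CPM values are counts scaled to the library total after its TMM factor, and Q20 and Q140 knock-in mice were fitted with sex and age. Differences of the age change were interaction terms. The study's own tests had a batch covariate, but the labels define no batch. The L number stands near the end of each library description, before an LB number, and was an alternative covariate.

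Alternatives were DESeq2 1.42.0, limma 3.58.1 on log2(FPKM + 1) and log2(FPKM + 0.1), other scalings, filters and covariates, subsets by line, sex or L number, the replicate number as a block, thinned counts, whole values only, the study's handling of outliers and each library left out. Tests between L numbers within an age, and fits without libraries set apart by depth, L number or connectivity, were added after the data were seen. No pair of the 32 libraries was a duplicate, with a smallest chi-square per degree of freedom of 22.5. Hairpins named by rule had the smallest adjusted p in each direction with the same sign in both litter lines, limited to 2 identifiers in each direction because identifiers are not paired with names here, and any other was chosen after its values were seen. Lists of microRNAs for brain functions and cell types could not be matched to identifiers, so no list was tested. The members and lists were chosen with earlier results of these data known.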

Additional observations from a re-analysis of the deposited data

Results flagged for a closer look

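In each of the 8 wild-type groups of 4 mice that share line, age and sex, 12 hairpins and the total counts were looked at. Of 104 such sets 7 had a mouse far from the other 3, and chance alone gives about 1 in 20. MI0004636 was at 65.4 CPM in 6-month male replicate 4 of the Q20 line, against 114 to 121 in the others, and MI0000170 at 73.7 CPM in 10-month male replicate 4 of that line, against 114 to 119.9. Female replicate 3 of the Q20 line at 6 months was low for both MI0021583 (41.9 CPM against 70.3 to 72.7) and MI0021587 (20.4 CPM against 37.9 to 41.1). MI0000154 was apart in 3 groups, at 121539 CPM in 10-month male replicate 1 of the Q20 line (100880 to 103948 in the others), at 159540 in 6-month female replicate 2 of the Q20 line (125112 to 126980) and at 107383 in 10-month female replicate 3 of the Q50 line (111559 to 111866).

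The change from 6 to 10 months differed between Q140 knock-in and wild-type mice, by an interaction term in edgeR, for 4 hairpins taken by smallest adjusted p, 2 per direction. MI0006128 changed by 0.04 on the log2 scale in wild type and 0.73 in Q140, a difference of 0.70 ± 0.16 (SE; adjusted p 0.0161), and MI0004673 by -0.43 and 0.57, a difference of 0.99 ± 0.24 (adjusted p 0.0161). MI0026033 changed by 0.01 and -0.58, a difference of -0.59 ± 0.14 (adjusted p 0.0161), and MI0000717 by 0.27 and -0.59, a difference of -0.86 ± 0.23 (adjusted p 0.0380). With the L number in the model their adjusted p values were 0.0653, 0.104, 0.0653 and 0.214, so none of the 4 passed.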

How the results depend on the processing

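The 165 hairpins called with age (75 higher, 90 lower) kept their direction under every alternative in which they were tested, apart from the following. Within L4 146 of 165 kept it, within L5 162 and within L4 and L5 with the L number as a factor 164. Single libraries left out were not examined for this. All of these fits reused libraries on which the calls were made, so kept direction is no independent check. The number called fell to 91 with the L number as a factor (44 higher, 47 lower), 108 without the L3 and L6 libraries (53 lower), 25 in L4 libraries only (15 higher, 10 lower), 57 in L5 libraries only (29 higher, 28 lower) and 55 in both with the L number as a factor (30 higher, 25 lower). It was 97 in the Q20 line only (40 higher, 57 lower), 58 in the Q50 line only (34 higher, 24 lower), 84 in females (41 higher, 43 lower), 109 in males (47 higher) and 106 with whole values only (45 higher), fits with fewer mice or hairpins. Scaling moved the split, with 54 lower for total counts only, 51 lower for limma on log2(FPKM + 1) and 116 higher with 51 lower for log2(FPKM + 0.1), on which scales the median of all hairpins was higher by 0.09, 0.12 and 0.12 than with TMM. With each library left out in turn 151 to 177 were called, 69 to 93 higher and 73 to 97 lower. With the replicate block 151 were called, 144 of them among the 165, but the numbers do not pair the mice: same-numbered residual profiles had a mean correlation of -0.02 (-0.28 to 0.30 over 16 pairs, 5 above 0.1) and it was 0.007 between other numbers.

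In Q20 knock-in mice total counts only gave 70 higher and 19 lower, the replicate block 64 calls in place of 66, and single libraries left out 52 to 79 (30 to 48 higher, 21 to 35 lower). The difference of the age change between sexes gave 18 calls with the L number as a factor. That between Q140 and wild type gave 11 in DESeq2, 0 with the L number as a factor and 0 to 15 with libraries left out. L5 against L4 gave 14 to 192 calls at 6 months and 2 to 23 at 10 months with libraries left out. MI0016973 was reversed within L5 (-3.37) and within L4 and L5 with the L number as a factor (-0.31), and MI0016974 within L5 (-1.32). The causes of these changes were not tested. Rare hairpins had the largest standard errors, and age cannot be told apart from the numbering of the libraries.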
